A study of Mus musculus with 24 samples.

Results

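Cdx2 binding after withdrawal of stem cell niche factors was examined in organoids of the distal mouse colon. The 6 libraries described are the 3 distal WENR-plus and the 3 distal WENR-minus Cdx2 libraries, chosen by their labels out of 12 Cdx2 libraries and 24 samples in all, and paired by replicate number. Merging the 6 peak lists wherever peaks shared at least 1 bp gave 27379 regions on chromosomes 1 to 19 and X, and each region was described by the libraries that called it. WENR-plus medium contained Wnt3a, EGF, Noggin and R-spondin 1, and WENR-minus medium lacked them. Every culture had first been grown with all factors for 4 months. The WENR-minus organoids were then plated for 2 days with the factors and held for 3 days without them. All 6 libraries shared 1 genotype, heterozygous for a Cre-inducible BRAF V600E allele and for a tdTomato reporter, and no source used here states that Cre was given to these cultures. Per the study's methods the organoids for this assay came from 3 mice and the mice used were 8 weeks old females. The labels number the biological replicates but do not state that equal numbers mark 1 mouse.

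Cdx2 is a homeobox transcription factor that sets intestinal identity and binds enhancers and promoters of genes used by mature enterocytes. Wnt ligands and R-spondin keep colon stem cells dividing through beta-catenin and its DNA-binding partners TCF and LEF, EGF drives growth through MAPK signalling, and Noggin blocks BMP, which promotes differentiation at the top of the crypt. Removing these factors from organoid medium takes away the support for the stem cell state, and the comparison asks which Cdx2 binding regions differ once that support is gone. Chromatin immunoprecipitation with adapter insertion by a transposase (ChIPmentation) was used, and the deposited peak lists give for each peak a fold enrichment over the matched input.

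Sequences of selected regions are printed below, so that the letters under the peaks can be read beside the values. Each line is a window of 101 bases around the median summit of the region, read from GRCm38 (the assembly of mm10), plus strand. Capitals mark 7-base words of 3 motifs on either strand: Cdx2 (TTTAT followed by GA, GG, TA or TG), TCF/LEF (CTTTGA followed by T or A) and AP-1 (TGANTCA). In the order given, the windows lie at chr11:99436876-99436976 in the promoter region of Krt20, chr3:14806983-14807083 in the promoter region of Car1, chr5:99369059-99369159 in an intron of Rasgef1b, chr7:89725202-89725302 in an intron of Me3, chr11:87689543-87689643 and chr11:87709760-87709860 in introns near Rnf43, chr14:99613982-99614082 between genes near Klf12 and chr8:26914209-26914309 between genes near Zfp703. The first 3 stood higher after withdrawal, the Me3 window was gained, the first Rnf43 window was lost, and the last 3 stood lower. The Klf12 window lies 286 kb from the nearest coding start. These windows were picked and do not stand for their classes. The lost region at chr11:87680776-87681338 near Rnf43 held no word of the 3 motifs. The lower region near Tmprss2 held only a Cdx2 word, and the higher region near Eps8 held a TCF/LEF word.
Krt20: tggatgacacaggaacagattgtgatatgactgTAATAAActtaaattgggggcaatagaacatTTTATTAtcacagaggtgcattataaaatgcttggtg
Car1: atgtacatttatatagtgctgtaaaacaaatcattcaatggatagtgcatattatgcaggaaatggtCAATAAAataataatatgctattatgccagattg
Rasgef1b: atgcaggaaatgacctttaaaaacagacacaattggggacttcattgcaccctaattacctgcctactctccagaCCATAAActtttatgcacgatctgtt
Me3: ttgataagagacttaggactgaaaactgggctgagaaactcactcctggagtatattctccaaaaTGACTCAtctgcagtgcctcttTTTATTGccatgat
Rnf43, lost region: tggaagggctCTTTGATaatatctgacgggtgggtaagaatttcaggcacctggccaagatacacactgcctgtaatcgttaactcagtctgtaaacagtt
Rnf43, lower region: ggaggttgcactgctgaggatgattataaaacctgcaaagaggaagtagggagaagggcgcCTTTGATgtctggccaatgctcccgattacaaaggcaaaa
Klf12: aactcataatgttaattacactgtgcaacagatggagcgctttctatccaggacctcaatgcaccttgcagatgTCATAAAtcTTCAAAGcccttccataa
Zfp703: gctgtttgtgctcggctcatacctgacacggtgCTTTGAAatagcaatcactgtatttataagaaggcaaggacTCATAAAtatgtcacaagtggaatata

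The 6 lists differed in length, and this difference enters every count below. WENR-plus lists held 7371, 13362 and 5604 peaks in replicates 1, 2 and 3, and WENR-minus lists held 21028, 7891 and 7901. WENR-minus had the longer list in 2 of 3 pairs (log2 difference 0.42, paired exact permutation p = 0.75, smallest possible p = 0.25). The total reads that the study states for its libraries were not used here, and the genome background solved from fold and p-value served as a stand-in for depth. It ran from 1.25 to 1.34 overlapping fragments in the WENR-plus and from 1.54 to 2.10 in the WENR-minus libraries, higher in WENR-minus in 3 of 3 pairs (exact permutation p = 0.25 paired and 0.1 unpaired, the smallest possible), so depth moved with the medium and its part in the counts was not tested. The median fold of whole lists was lower in WENR-minus in 3 of 3 pairs without overlap (6.20, 6.22 and 6.57 against 5.16, 5.92 and 5.94, exact permutation p = 0.25 paired and 0.1 unpaired). The folds of single regions are printed below as deposited, and how far they carry this difference was not tested. The log2 differences below were centred on each library's median over the regions called in all 6 libraries, not over its whole list. The Cdx2 motif lay within 50 bp of 49.8% to 65.2% of the summits of a list against 9.64% to 11.9% in windows 1000 bp away. Of 8 epithelial marker genes 3 (Vil1, Krt19 and Krt20) had a region called in all 6 libraries within 3 kb of a start site. Cdh1, Epcam, Krt8, Krt18 and Cdx2 did not. Of 15 marker genes of fibroblasts, muscle, immune and endothelial cells 0 did. Such a region lay near only 1.5% of all coding genes, so a count of 0 among 15 says little.

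Few regions were called in all libraries of 1 medium and in none of the other. Of the 27379 regions, 13934 (50.9%) were called in 1 library and 2441 (8.92%) in all 6. Regions called in all 6 libraries carried the Cdx2 motif more often than those called in 1 (70.5% against 59.1%) and lay in promoters more often (21.9% against 15.5%). Gained regions, called in all 3 WENR-minus and no WENR-plus library, numbered 257 (0.939% of regions). Lost regions, called in all 3 WENR-plus and no WENR-minus library, numbered 77 (0.281%). When each list was cut to its 5604 strongest peaks by p-value, 12360 regions remained, of which 117 (0.947%) were gained and 98 (0.793%) lost. The excess of gained over lost regions in full lists was thus smaller in equal-length lists. Regions meeting the definition in both sets of lists numbered 34 gained (13.2% of the full-list and 29.1% of the equal-length set) and 21 lost (27.3% and 21.4%).

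**Figure D1:**
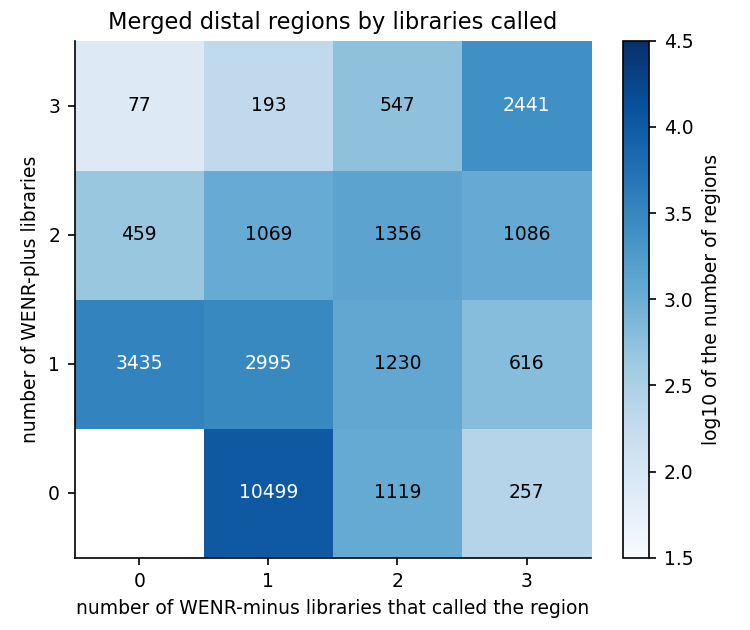
Number of merged regions (numbers in the cells, colour on a log10 scale) by how many WENR-minus libraries (horizontal axis) and WENR-plus libraries (vertical axis) called them. The cell at 3 and 3 holds 2441 regions, while the corners for gained and lost regions hold 257 and 77.

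Median width was 382 bp for gained and 364 bp for lost regions, against 350 bp for all regions called in 3 libraries and 649 bp for those called in all 6. Of the gained regions 49 (19.1%, 95% Wilson interval 14.7% to 24.3%) lay in promoters and 113 (43.97%) between genes. Of the lost regions 18 (23.4%, 15.3% to 33.95%) lay in promoters and 22 (28.6%, 19.7% to 39.5%) between genes. These intervals cover counting error only. Of all regions called in 3 libraries 17.7% lay in promoters and 44.6% between genes, and of those called in all 6, 21.9% and 39.4%. Both gained shares thus lay near those of regions called in 3 libraries. The lost share between genes was lower than either, though its interval reached 39.5%. The Cdx2 motif was present at 56.4% of gained and 51.9% of lost regions, below its share at regions called in 3 libraries (66.2%), at those called in all 6 and at all regions (63.0%).

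The gained regions with the highest fold percentile in the WENR-minus libraries included a pair in Me3, which encodes a mitochondrial malic enzyme. A fold percentile is the rank of a peak's fold within its own list, from 0 to 100. The Me3 region at chr7:89724903-89725590, in an intron 11.5 kb from a start site, was absent from all WENR-plus lists and had folds of 10.3, 7.89 and 10.1 in WENR-minus replicates 1 to 3, at percentiles 93.4, 80.1 and 89.0. Its window holds a Cdx2 word and an AP-1 word (printed above). The second, at chr7:89720266-89720739, had folds of 7.42, 6.84 and 7.45. With a further region 0.74 kb from a start, Me3 was the nearest coding gene of 3 gained regions, the most of any gene.

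The other 8 of the 10 named gained regions lay near 1700012B07Rik, B3gnt2, Ccdc171, Cyp2j6, Tbc1d12, Crem, Tsc22d3 and Igsf9b. Crem encodes a cyclic AMP responsive transcription factor, Tsc22d3 a glucocorticoid-induced leucine zipper protein and Cyp2j6 a cytochrome P450. Distances to the nearest coding start ran from 2.07 kb (Tbc1d12, promoter) to 124 kb (B3gnt2, where the region lies at a start of another annotated transcript), and only Tbc1d12 had the region within 3 kb of a coding start. Folds in the 3 WENR-minus libraries ran from 5.35 to 12.9 over these 8, both at Tsc22d3. Of the 10, 8 held a Cdx2 word, 3 an AP-1 word and 0 a TCF/LEF word. All 3 proximal WENR-plus libraries called 7 of the 10.

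The lost regions included a pair each near Vgll4 and Rnf43, the only genes nearest to more than 1. Rnf43 encodes a ubiquitin ligase that removes Wnt receptors from the cell surface and is itself a target of Wnt signalling. The region at chr11:87680776-87681338, 16.6 kb from a start site, had folds of 8.38, 8.88 and 8.96 in WENR-plus replicates 1 to 3 and was called in no WENR-minus library. Its window holds no word of the 3 motifs. A second lost region at chr11:87689489-87689740 had folds of 7.05, 5.77 and 7.25 and holds a TCF/LEF word (printed above), but in equal-length lists it was called in 2 WENR-plus libraries only. A further region, at chr11:87709533-87710413, was called in all 6 libraries, with folds of 10.1, 8.44 and 9.39 in WENR-plus and 5.49, 5.92 and 6.64 in WENR-minus. These 2 sets of 3 folds did not overlap, but the centred log2 difference of -0.59 did not pass the test (limma adjusted p = 0.261), and its window holds a TCF/LEF word as well. The region in the Rnf43 promoter, 2.46 kb from a start, had folds of 7.27, 8.26 and 9.27 against 7.101, 5.18 and 9.61, which overlapped. Both lost regions and the region at chr11:87709533-87710413 were also called in all 6 proximal libraries.

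Vgll4 encodes a cofactor that competes with YAP for TEAD factors, and its region at chr6:114901428-114901792 had folds of 9.26, 10.2 and 8.53 in WENR-plus and no call in WENR-minus. The other 8 named lost regions lay near Tnfsf10, Arhgef26, Rgmb, Slc9a5, Kank1, Phlda1, Lypd6b and Nrp1. Their distances to the nearest coding start reached 173 kb at Rgmb, 65.6 kb at Nrp1 and 51.7 kb at Phlda1. Tnfsf10 encodes the death ligand TRAIL, Rgmb a BMP co-receptor and Nrp1 a receptor for semaphorins and VEGF. Their folds in WENR-plus ran from 6.58 to 10.7, and the Slc9a5 region, 0.695 kb from the start, was the one within 3 kb of a coding start. Of the 10, 6 held a Cdx2 word and 0 a TCF/LEF or AP-1 word.

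For the 2441 regions called in all 6 libraries, the fold percentile of each pair could be compared. In full lists it followed list length: the median change (WENR-minus minus WENR-plus) was 10.2 points in replicate 1, where the WENR-minus list was the longer, -6.00 in replicate 2, where it was the shorter, and 3.26 in replicate 3. In equal-length lists these medians were -0.0892, -0.170 and 0.147 over 1636 regions. Changes of single regions are therefore to be read against these shifts. The percentile was at least 10 points higher in all 3 pairs at 110 regions (4.51%) and at least 10 points lower at 48 (1.97%), and in equal-length lists at 68 (4.16%) and 82 (5.01%). The smallest of the 3 changes was 10.3 just inside the limit and 9.81 just outside for higher regions, and -10.2 and -9.83 for lower regions. Of the higher regions 52 were still called in all 6 equal-length lists and 32 of them met the limit there. Of the lower regions 6 were still called and all 6 met it, while the other 42 could not be compared.

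**Figure D2:**
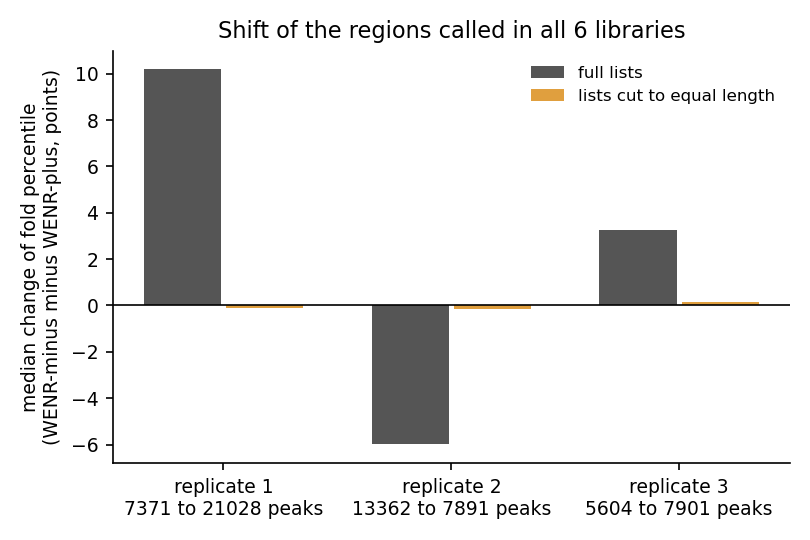
Median change of fold percentile (vertical axis, points, WENR-minus minus WENR-plus) over the regions called in all 6 libraries, by replicate number, in full lists (grey) and in lists cut to equal length (orange). The grey bars reach 10.2, -6.00 and 3.26 points with the list lengths printed under them, and the orange bars reach -0.0892, -0.170 and 0.147.

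In the paired limma fit of the percentiles over all 2441 regions, 0 were higher and 0 lower after withdrawal at an adjusted p under 0.05 (0% of regions tested, lowest adjusted p = 0.831). At an unadjusted p under 0.05 there were 88 higher and 38 lower. The same fit on the log2 fold, centred on the median of each library, called 6 regions higher (0.246%) and 7 lower (0.287%). None of these 13 calls was made in equal-length lists, where 6 of the 13 regions were still called in all 6 libraries and could be tested (lowest limma adjusted p over all 1636 regions 0.0631). The log2 differences of these 6 stayed near their size over 6 alternatives, the equal-length lists among them, at 1.02 to 1.45 for Krt20, 1.04 to 1.22 for Hsfy2, 0.96 to 1.11 for Fam129a, -1.37 to -1.26 for Rnd3, -1.21 to -0.92 for Limk2 and -1.20 to -1.03 for Tc2n. For all 13 the WENR-plus and WENR-minus folds did not overlap.

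Krt20, a keratin of differentiated colonocytes, had the highest WENR-minus fold of the 6 higher regions. Its promoter region at chr11:99436366-99437431, 1.22 kb from the start, had folds of 7.40, 9.29 and 12.8 in WENR-plus and 25.8, 18.9 and 20.6 in WENR-minus. The centred log2 difference was 1.21 ± 0.24 (SE, n = 3 pairs, limma adjusted p = 0.0220). Over the 6 alternatives, where the difference kept that size, the adjusted p ran from 0.0203 to 0.352, 2 of them under 0.05. Its window holds 2 Cdx2 words on opposite strands. In the proximal libraries the same region already stood at percentiles 96.7 to 99.3 with the niche factors.

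The Rasgef1b intron region at chr5:99368723-99369507 rose most in log2 fold (1.57 ± 0.22 SE, n = 3 pairs, limma adjusted p = 0.00250, 1.66e-05 to 0.352 over 4 alternatives). Rasgef1b encodes an exchange factor for Ras-family proteins. The folds were 5.04, 5.50 and 5.02 in WENR-plus and 13.9, 14.6 and 16.8 in WENR-minus. The percentiles moved from 16.04, 36.7 and 13.1 to 97.6, 98.0 and 97.9. A region near Larp4b, an RNA-binding protein gene, moved from folds of 4.504, 4.66 and 5.79 to 10.05, 9.39 and 10.5 (log2 difference 1.05, limma adjusted p = 0.0393). The other 3 called higher lay near Hsfy2, Fam129a and Eif2s2, with log2 differences of 1.03 to 1.11 (limma adjusted p = 0.0267 to 0.0393), and were named after their values were seen.

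Among the 7 regions called lower, the promoter region of Kmt2a, a histone methyltransferase gene, at chr9:44881191-44882080 had the largest difference (log2 -1.80 ± 0.28 SE, n = 3 pairs, limma adjusted p = 0.00366, 0.000137 to 0.0341 over 4 alternatives). Its folds were 24.2, 33.8 and 34.6 in WENR-plus and 6.13, 4.73 and 21.3 in WENR-minus, so replicate 3 differed less than the other pairs, and in equal-length lists WENR-minus replicates 1 and 2 no longer called it. It holds no Cdx2 word within 50 bp of its summit. The region near Wdr11, at chr7:129712234-129712883, went from folds of 12.8, 10.7 and 16.2 to 5.49, 4.32 and 5.94 (log2 -1.29, limma adjusted p = 0.00981). The region near Zfp957 went from 10.6, 14.7 and 13.7 to 4.44, 6.65 and 5.94 (log2 -1.16), and that near Csrp2, a LIM domain protein gene, from 10.6, 11.5 and 11.5 to 6.13, 5.397 and 4.76 (log2 -1.01). The other 3, near Rnd3, Limk2 and Tc2n, had log2 differences of -1.304, -1.04 and -1.14. The limma adjusted p of these last 5 ran from 0.00851 to 0.0431. Kmt2a, Rnd3, Limk2 and Tc2n were named after their values were seen.

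**Figure D3:**
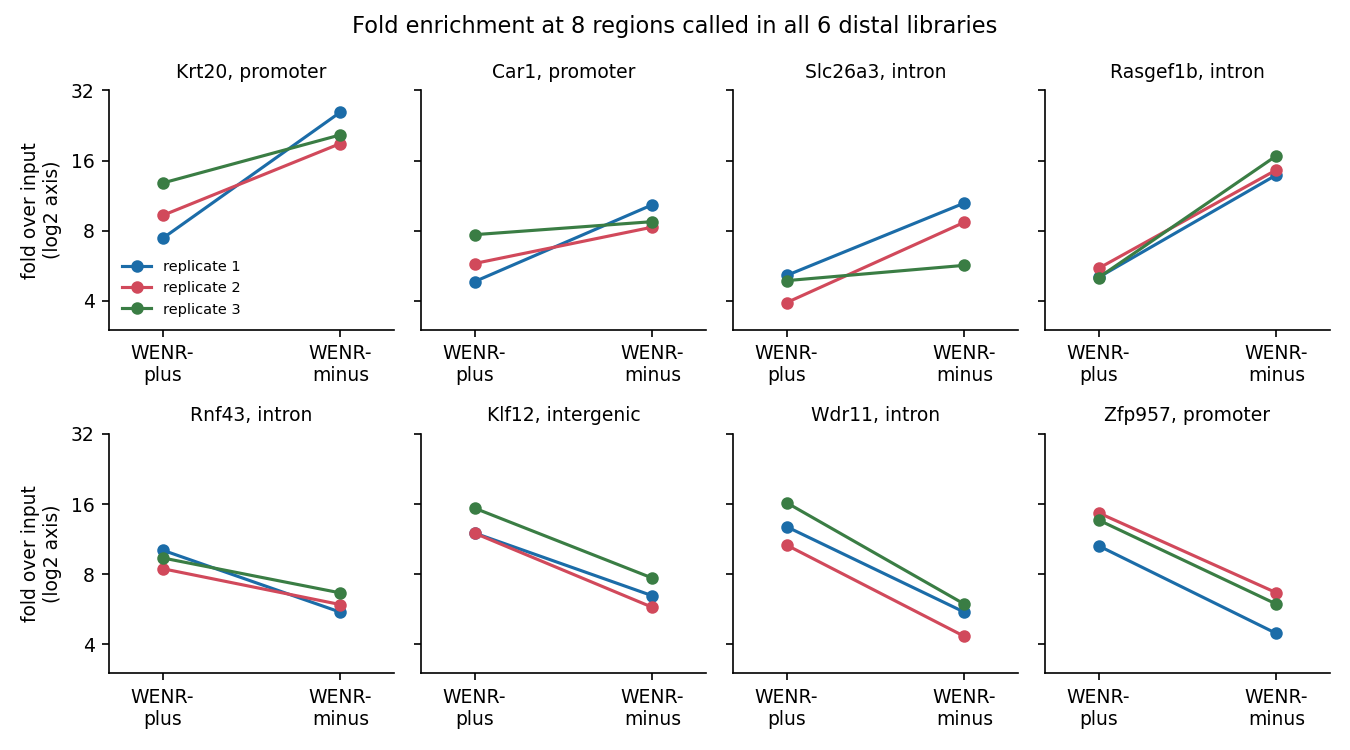
Fold over input (vertical axis, log2 scale) of 8 regions called in all 6 distal libraries, with a line per replicate number from WENR-plus to WENR-minus. Panel titles give a gene name and the annotated place of the summit, which need not lie inside that gene. Krt20, Car1, Slc26a3 and Rasgef1b (upper row) lie higher after withdrawal in each pair and Rnf43, Klf12, Wdr11 and Zfp957 (lower row) lower in each pair, with Krt20 reaching 25.8 and Wdr11 reaching 4.32.

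Besides Rasgef1b and Larp4b, the 10 regions with the largest percentile increases common to all 3 pairs lay near Crim1, Eps8, Cd47, Klf6, Atp2b1, Slc26a3, Uhrf1bp1l and Efna5, and none passed the test on percentiles. The gene named is that of the nearest coding start, which lay 494 kb from the Klf6 region. The Crim1 region, at chr17:77200094-77200772, lies 999.8 kb from that gene's start. It went from percentiles 12.4, 5.21 and 9.51 to 82.2, 83.2 and 81.7, and was the 1 region called when the pairing was left out of the fit. The Eps8 region, in the gene of an actin-capping protein of microvilli, went from 28.1, 4.49 and 21.8 to 86.2, 85.6 and 80.3. The 10 largest decreases common to all pairs lay near Tmprss2, Wdr11, Zfp957, Mup22, Vps13b, Zfp703, Frat2, Csrp2, Cntnap5b and Klf12. The Klf12 region, 286 kb from that gene's start, went from folds of 12.0, 12.0 and 15.4 to 6.46, 5.76 and 7.69. The Zfp703 region went from 12.3, 10.05 and 14.3 to 6.13, 6.31 and 7.34. The windows of both regions hold a Cdx2 and a TCF/LEF word. The same pair of words lay at 2 of the 10 largest increases, near Eps8 and Larp4b. The region near Mup22 lies in a cluster of near-identical urinary protein genes, where read placement is uncertain. In equal-length lists WENR-minus replicate 1 no longer held any of these 10 decreases, and WENR-plus replicate 2 no longer held 9 of the 10 increases, all but that near Efna5.

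Around 25 genes of mature colonocytes, regions were more frequent than around coding genes at large, whether or not they changed. All 25 had some region within 50 kb of a start (100% against 60.9%), and 13 had a region called in all 6 (52.0% against 12.6%). The shares of gained and higher regions below are to be read beside these. Of these 25 genes, 6 (Car1, Krt20, Vil1, Slc26a3, Cdhr5 and Cdh17) had a region called in all 6 libraries within 3 kb of a start, 24.0% against 1.5% of 21728 coding genes. Within the same 3 kb, 0.143% of coding genes had a gained, 0.069% a lost, 0.0552% a higher and 0.0368% a lower region, and of the 25 only Car1 had any of these. Within 50 kb, 3 (Car4, Fabp2 and Tmigd1) had a gained region, 12.0% against 1.35% of coding genes. Likewise 2 (Car1 and Slc26a3, 8% against 0.612%) had a higher region, 1 (Ceacam1, 4% against 0.617%) a lost one and 0 a lower one (against 0.226%). The regions counted for Car4, Tmigd1 and Ceacam1 lay nearer to Znhit3, Blmh and Ceacam2. These lists were described by counts alone, and the 3 gained regions did not meet the definition in equal-length lists.

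Car1 encodes carbonic anhydrase 1, abundant in colon epithelium. Its region at chr3:14806735-14807501, 1.33 kb from a start, had folds of 4.83, 5.77 and 7.68 in WENR-plus and 10.3, 8.28 and 8.74 in WENR-minus, without overlap. The log2 difference was 0.64 (limma adjusted p = 0.213). A second Car1 region at chr3:14779984-14780952 was stronger throughout, with 13.7, 11.7 and 17.1 against 21.6, 17.7 and 23.4, again without overlap (0.61, adjusted p = 0.223). Slc26a3, the chloride and bicarbonate exchanger of colonocytes, had a pair of intron regions in the higher class. At chr12:31400789-31401399 folds were 5.13, 3.92 and 4.87 against 10.5, 8.68 and 5.67, and at chr12:31428582-31429289 they were 5.73, 8.23 and 7.25 against 11.4, 11.8 and 10.1. Neither passed the limma test on log2 fold (adjusted p = 0.122 and 0.139). Its promoter region, 0.145 kb from the start, had overlapping folds of 6.17, 7.22 and 6.40 against 6.78, 7.56 and 5.77. Vil1, an actin bundler of microvilli, also had overlapping folds of 6.17, 7.82 and 5.97 against 8.07, 7.49 and 8.04. Promoter regions of 2 colonocyte genes lay the other way without overlap. Cdh17, an intestinal cadherin, had folds of 9.26, 12.0 and 9.81 against 8.65, 8.28 and 9.16 (log2 -0.21, limma adjusted p = 0.718), and Cdhr5, a cadherin of the brush border, 7.49, 7.11 and 6.83 against 6.46, 5.92 and 4.66 (-0.31, adjusted p = 0.601).

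Among 25 stem cell and Wnt genes, Rnf43 was the 1 gene with a region called in all 6 within 3 kb (4%, against 1.5% of coding genes). Within 50 kb it was also the 1 with a lost and the 1 with a lower region (4% each, against 0.617% and 0.226%), so these counts rest on 1 locus. Of the 25, 0 had a gained or higher region (against 1.35% and 0.612% of coding genes). Within 50 kb, 3 (12.0%, against 12.6%) had a region called in all 6. Of 16 BMP response genes, Bmp2 and Smad7 had a gained region within 50 kb (12.5%, against 1.35% of coding genes). The gained Bmp2 region stood at WENR-minus percentiles of 25.7, 34.1 and 42.6 and did not meet the definition in equal-length lists. Bmp2 encodes a BMP ligand, and its promoter region had folds of 9.26, 7.995 and 10.2 against 11.9, 8.28 and 13.3, which overlapped. Of 23 EGF and MAPK genes, Errfi1, a feedback inhibitor of the EGF receptor, had a gained, Spry4, an inhibitor of MAPK signalling, a higher and Hbegf, an EGF receptor ligand, a lower region within 50 kb (4.35% each, against 1.35%, 0.612% and 0.226% of coding genes), the last 2 nearer to Arhgap26 and Slc4a9. Of 23 intestinal transcription factor genes, Hnf4g (4.35%, against 0.612%) had a higher region in an intron, with folds of 7.36, 7.55 and 5.21 against 10.3, 8.64 and 16.4. Of 16 proliferation genes Pcna (6.25%, against 1.35%) had a gained region, 36.8 kb from its start and in an intron of Cds2. Of 23 Hox, 16 goblet, 16 enteroendocrine and 8 tuft cell genes, 0 had a gained, lost, higher or lower region within 50 kb. A region called in all 6 lay within that distance of 16 Hox genes (69.6%, against 12.6% of coding genes). At 50 kb 1 region can count for several neighbouring genes. Within 3 kb, 1 Hox gene (Hoxc6, 4.35%, against 1.5% of coding genes) had such a region.

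The letters under the summits, which the choice of regions did not use, also set gained and lost regions side by side. TCF/LEF words lay within 50 bp of the summit at 11 of 77 lost regions (14.3%, 95% Wilson interval 8.17% to 23.8%) and 6 of 257 gained regions (2.33%, 1.07% to 5.00%), against 5.63% of all 27379 regions, 6.00% of those called in 3 libraries and 5.98% of those called in all 6. In windows 1000 bp away the TCF/LEF share was 8.44% for lost, 4.47% for gained and 4.42% for all regions, so part of the contrast was also seen away from the summits. At regions lower in every pair the share was 18.8% (9 of 48, 10.2% to 31.9%), and at regions higher in every pair 5.45% (6 of 110). In equal-length lists these shares were 13.4% (11 of 82) and 4.41% (3 of 68). AP-1 words lay at 43 of 257 gained (16.7%, 12.7% to 21.8%) and 7 of 77 lost regions (9.09%, 4.47% to 17.6%), against 7.50% of all regions, 9.68% of those called in 3 libraries and 10.9% of those called in all 6. The AP-1 share was 11.8% (13 of 110) at regions higher and 2.08% (1 of 48) at regions lower in every pair, and this order turned in equal-length lists (7.35%, 5 of 68, against 10.98%, 9 of 82). Over regions called in at least 3 libraries, the TCF/LEF share went from 14.3% through 10.9%, 6.37%, 5.82%, 5.87% and 5.36% to 2.33% as the number of WENR-minus minus WENR-plus libraries went from -3 to 3, and the AP-1 share from 9.09% to 16.7%. These shares describe regions and were not tested, since regions are not replicates of the media. No word belongs to more than 1 of the 3 motifs. The TCF/LEF and AP-1 words, like those of 7 further families, were chosen after the lists had been seen.

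**Figure D4:**
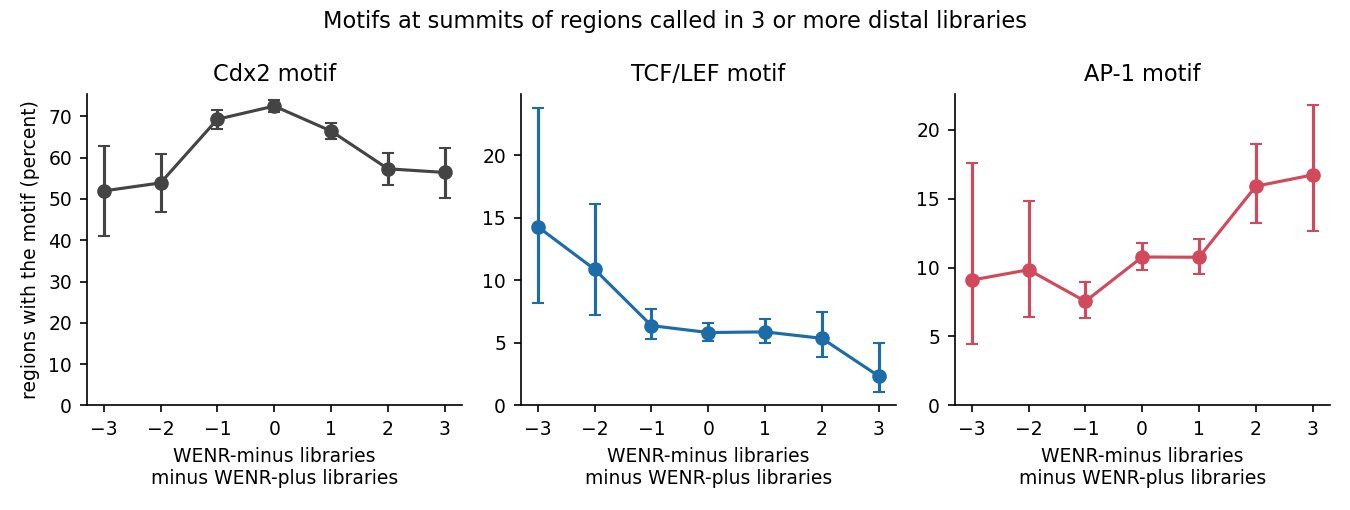
Percent of regions with a Cdx2 (left), TCF/LEF (middle) or AP-1 (right) word within 50 bp of the summit (vertical axes), by the number of WENR-minus minus WENR-plus libraries that called the region (horizontal axes), for regions called in at least 3 libraries. Bars are 95% Wilson intervals, and the TCF/LEF share goes from 14.3% at -3 to 2.33% at 3 while the AP-1 share goes from 9.09% to 16.7%.

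Over whole lists, where libraries are the replicates, the TCF/LEF share was 5.90%, 5.83% and 6.64% in WENR-plus and 5.47%, 5.66% and 5.42% in WENR-minus, lower in 3 of 3 pairs without overlap of the groups. The mean difference was -0.606 points (paired exact permutation p = 0.25, the smallest possible, adjusted p = 0.458 over 10 motifs and the promoter share). It was lower in 3 of 3 pairs in equal-length lists too, where the groups likewise did not overlap. In the proximal libraries it was lower in 1 of 3 pairs. The shares of HNF4, ETS, FOX and E-box words were also lower in 3 of 3 distal pairs of full lists, and that of FOX differed by more (-0.759 points) and likewise without overlap (2.85%, 2.99% and 3.94% against 2.17%, 2.80% and 2.53%), so this direction was not particular to TCF/LEF. The AP-1 share was higher after withdrawal in 2 of 3 distal pairs in full lists and in 3 of 3 in equal-length lists (9.26% ± 1.303 against 10.2% ± 1.64, SD, n = 3). In equal-length lists it was also higher in 3 of 3 proximal pairs, and the exact permutation p over the 6 pairs was 0.0312, the smallest possible, with an adjusted p of 0.344. Per the methods, organoids of both sites came from 3 mice, while this test treats the 6 pairs as independent. The promoter share of distal lists was 20.1% ± 2.204 in WENR-plus and 18.6% ± 2.70 in WENR-minus (SD, n = 3), lower in 3 of 3 pairs (paired exact permutation p = 0.25). The Cdx2 motif share was 58.2% ± 5.99 and 57.9% ± 7.75, with no common direction.

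The 6 proximal libraries, which took no part in defining the regions, were read at the distal classes. In equal-length lists, gained distal regions were called in 19.1%, 12.5% and 16.3% in proximal WENR-plus replicates 1 to 3 and in 30.0%, 21.8% and 36.6% in proximal WENR-minus, higher in 3 of 3 pairs without overlap. Lost distal regions were called in 26.0%, 23.4% and 55.8% with the factors and 15.6%, 11.7% and 20.8% without, lower in 3 of 3 pairs without overlap. Each difference had an exact permutation p of 0.25 paired and 0.1 unpaired, the smallest possible. Regions called in all 6 distal libraries were called in 78.4% and 78.8% on average. In full lists the lost regions were again lower in 3 of 3 pairs (79.7% against 49.8%), but all 27379 regions were also called less often there in 3 of 3 pairs (66.1%, 73.8% and 35.2% against 62.3%, 43.8% and 30.8%), and the gained regions were higher in 2 of 3 only (56.2% against 62.5%).

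**Figure D5:**
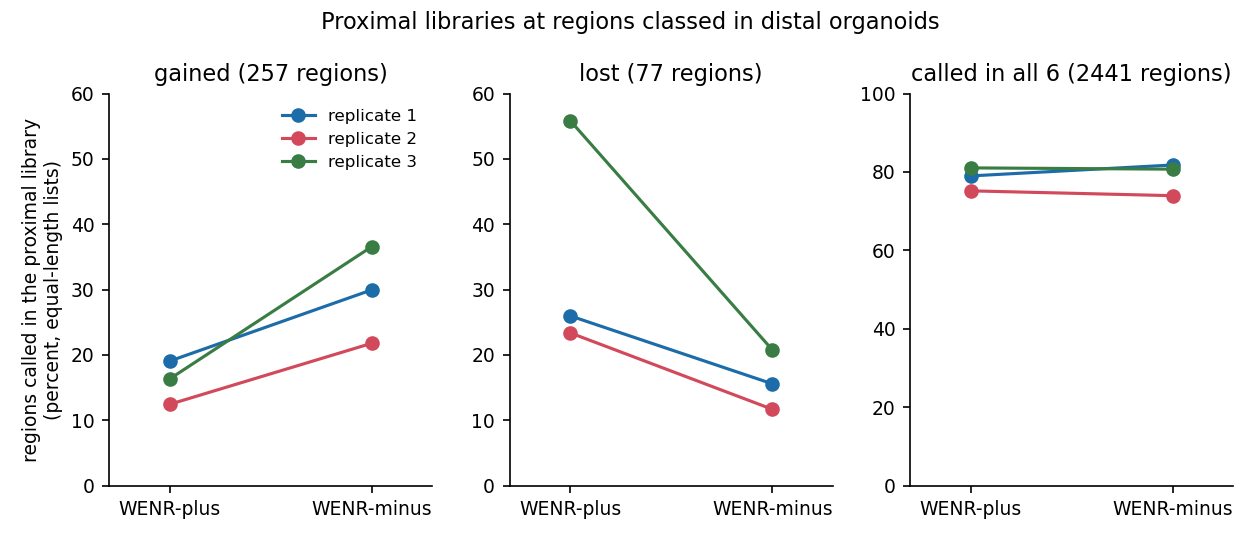
Percent of the distal gained, lost and all-6 regions (panels) that were called in each proximal library (vertical axes, lists cut to equal length), with a line per replicate number from WENR-plus to WENR-minus. In all 3 lines the gained regions go up, to 30.0%, 21.8% and 36.6%, and the lost regions go down, to 15.6%, 11.7% and 20.8%.

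At the distal regions called in all 6, the proximal percentiles of full lists were compared in the same way. Relative to the median change over all such regions found in both proximal libraries of a pair (2197 to 2311 regions), the median proximal change was 1.98, 3.09 and 4.86 points in replicates 1 to 3 at the regions higher in distal organoids, and -2.41, -8.15 and -3.54 points at the lower ones. Without this reference the medians were 1.81, -2.34 and 3.74 points at the higher regions, so replicate 2 fell there. At the lower regions they were -2.57, -13.6 and -4.66 points. The difference between the distal and the proximal change was tested by a limma interaction over the 2077 regions called in all 12 libraries, where 0 passed in either direction (0% of those tested, lowest adjusted p = 0.147, and 89 higher and 18 lower at an unadjusted p under 0.05). Peak sets of equal length were most alike between libraries of 1 replicate number in different media (mean Jaccard index 0.457 over 3 pairs), then between libraries of 1 medium (0.420 over 6 pairs), then between libraries sharing neither (0.385 over 6 pairs).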

How the data were processed

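The submitters' processing notes name Trimmomatic 0.39 (trimming), Bowtie2 2.4.5 (alignment, mm10), SAMtools 1.13 (duplicate removal) and MACS2 2.2.7.1, with which the authors called the peaks of every library separately, using its own input as control and a q limit of 0.01. The deposited lists give, per peak, a score made from the q-value (not used), the fold (a ratio of summit pileup to local background) and the −log10 p-value and −log10 q-value. Folds were made against each library's own depth, so ranks within a list were compared. Regions were annotated with GENCODE vM21 (promoter, within 3 kb of any transcript start). Percentiles were tested with limma 3.58.1 (R 4.3.3), replicate number as a block and Benjamini-Hochberg adjustment, in code tested on simulated data, and shares with two-sided exact permutation tests. Named were the 10 strongest gained and lost regions that held in both full and equal-length lists, the 10 largest consistent rises and falls, the genes nearest to most gained or lost regions, and fixed-list genes near such regions. The members and lists were chosen with earlier results of these data known. Peaks on other chromosomes and contigs and the 12 input samples were not analysed. Replicates measure the spread between cultures numbered 1 to 3. Alternatives were equal-length lists, a stricter q limit, summits within 150 bp, each replicate number left out and no block.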

Additional observations from a re-analysis of the deposited data

Results flagged for a closer look

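At 3 named regions called in all 6 distal libraries, all distal pairs changed one way and all proximal pairs the other. The Eps8 region was 65.9 points higher on average after withdrawal in distal and 43.9 points lower in proximal organoids (fold percentile in full lists), a difference of 109.8 points (limma interaction, unadjusted p = 0.000141, adjusted p = 0.147). The Vil1 promoter region differed by 49.3 points (distal 27.8 higher, adjusted p = 0.830). The Frat2 region differed by -50.9 points (distal 41.7 lower, adjusted p = 0.830). None of these 3 interactions passed the adjustment, and list lengths moved the percentiles as described above.

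Outside chromosomes 1 to 19 and X, 307 peaks were listed in the 3 WENR-plus and 252 in the 3 WENR-minus distal libraries. They lie outside the comparisons and were not analysed.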

How the results depend on the processing

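List length moved the counts of regions. Against 257 gained, 110 higher and 48 lower regions in full lists, equal-length lists gave 117, 68 and 82. Leaving out 1 replicate number left 420 to 1559 gained, 123 to 610 lost, 2798 to 3953 called in all libraries, 226 to 648 higher and 102 to 341 lower regions, since fewer lists then had to meet each definition. Without replicate 1, lost regions outnumbered gained ones (610 against 420). The percentile fit called 0 regions under each alternative except the fit with no replicate block (1 higher) and the log2 fold (6 higher, 7 lower). The interaction with site called 2 higher and 1 lower region with no replicate block. The log2 fold calls were 0 higher and 0 lower in equal-length lists, 0 and 1 with peaks at a −log10 q under 5 dropped, 1 and 0 with no replicate block, 1 and 0 with quantiles equalised, and 0 to 16 higher and 1 to 10 lower with 1 replicate number left out, lowest without replicate 3. These alternatives of the log2 fold were chosen after seeing the data, and the cause of the differences was not tested.

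The log2 peak number difference ran from -0.13 without replicate 1 to 1.00 without replicate 2. The Cdx2 motif share difference of -0.344 points was 2.06 in equal-length lists, 0.743 without peaks under a −log10 q of 5 and -1.23 to 0.991 with 1 replicate number left out. The promoter share was lower after withdrawal in each alternative run. Deviations of same-numbered libraries correlated at 0.146, -0.0147 and 0.274 over the 2441 regions, and those of differently numbered libraries at -0.235 to 0.117. In equal-length lists the values were 0.266, -0.00968 and 0.308 against -0.305 to 0.0789. Replicates 1 and 3 thus correlated best with their own number, while replicate 2 did not. The numbers were not shown to pair the samples of replicate 2, and the pairing was kept as the labels number them. Of the 100 alternative percentiles of the named gained and lost regions, 71 moved by less than the spread of their replicates and 29 by more. Of the 67 alternative changes of the named higher and lower regions, 62 moved by less and 5 by more, all in the same direction. A further 33 values could not be had because a library no longer called the region. Total reads were not used here, which limits what absence of a call says.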
